A study of Arabidopsis thaliana with 6 samples.

Results

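The transcript models described here were paired with transposable elements (TEs) of Arabidopsis thaliana and lay outside the TE-dense blocks that flank the centromeres. The area outside these blocks is called the arms here. A transcript model was taken when its midpoint lay outside Chr1 12.5 to 17.0 Mb, Chr2 1.5 to 6.0 Mb, Chr3 11.5 to 16.0 Mb, Chr4 2.0 to 5.5 Mb and Chr5 10 to 14 Mb. The rule uses position alone and kept 237 of the 829 models, at 112 of 344 loci. The area outside the blocks is 82.4% of the nuclear genome, and it held 28.6% of the models. Every model had been paired by the authors with at least 1 annotated TE identifier, such as AT5TE20395. The pairing does not make each model a TE product. For 10 of the outside loci the best protein match was the annotated coding gene on which they lie, such as GAMMA CA2. Such a match does not show a host product either. The 10 include AT1TE27295 on AT1G23915, a protein with near-identical copies at other TE loci.

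Full-length cDNA from poly(A) RNA of immature flower buds, stages 1 to 12, was sequenced on a Nanopore device. All plants were of ecotype Columbia, grown at 22 °C with 16-h days. Besides wild type (wt) there were the single mutant ddm1, the doubles ddm1 rdr6 and ddm1 polV, and the triple ddm1 rdr6 polV, so all 5 mutant libraries carried ddm1. Each genotype had 1 library except the triple mutant, whose replicates A and B are called triple A and triple B here. Round 1 was amplified with 14 PCR cycles and held every library but triple B, which made up round 2, amplified with 13 cycles and, per the labels, at a higher depth. RNA of wt was taken up in TriZOL and that of the mutants in TriZOL LS. The files hold TE models only, so the mutated genes could not be checked, and in these bulk samples fewer cells of a type and less RNA per cell cannot be told apart.

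DDM1 is a chromatin remodeler that lets DNA methylation and histone H1-bound heterochromatin be maintained over TEs. RDR6 makes double-stranded RNA from TE transcripts that then feed small interfering RNAs, and Pol V makes scaffold transcripts at which small RNAs direct DNA methylation, a pathway known for short TEs near genes on chromosome arms. LTR retrotransposons copy themselves through an RNA that starts in one long terminal repeat and ends in the other, while DNA transposons move through a transposase made from a spliced mRNA.

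The sequences shown here come from EVADE, from 2 other Copia-like elements and from a family with a small spliced reading frame. They are read from RefSeq's TAIR10.1 assembly at the coordinates of the models. EVADE (AT5TE20395), an active ATCOPIA93 retrotransposon, gave a spliced model that starts with the same 36 nt with which a model of its 3′ part ends. These are shown in capitals in the first 70 nt of the spliced model (TAIR10, chr5:5630284-5630353, plus strand) and the last 70 nt of that 3′ model (chr5:5635173-5635242, plus strand).
EVADE spliced model, first 70 nt: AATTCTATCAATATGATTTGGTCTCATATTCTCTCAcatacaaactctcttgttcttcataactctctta
EVADE 3′ model, last 70 nt: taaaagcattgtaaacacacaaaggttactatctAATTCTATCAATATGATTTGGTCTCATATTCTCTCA
The shared run opened the first model at its base 1 and closed the other with 0 nt left over. This follows from how the run is bounded, by the start of one model and the end of the other. Its length therefore depends on the 2 models shown. The 3′ model of triple A ended at 5635234, and the unspliced model ran from 5630298 to 5635230.

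The EVADE intron and the introns of 2 other Copia-like models that recurred between libraries are shown by their 5′ and 3′ edges, with the first or last 2 intron bases in capitals. The EVADE edges are chr5:5631467-5631506 and chr5:5631763-5631802. Those of AT4TE50435 are chr4:10994524-10994563 and chr4:10994655-10994694. Those of AT1TE71775, an element inside the disease resistance gene RPP7, are chr1:21749783-21749822 and chr1:21749914-21749953. All 3 elements lie on the plus strand.
EVADE donor: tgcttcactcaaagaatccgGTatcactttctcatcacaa
EVADE acceptor: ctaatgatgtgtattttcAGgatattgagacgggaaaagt
AT4TE50435 donor: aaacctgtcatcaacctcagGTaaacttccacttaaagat
AT4TE50435 acceptor: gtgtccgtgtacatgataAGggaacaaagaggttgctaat
AT1TE71775 donor: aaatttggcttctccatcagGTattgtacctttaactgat
AT1TE71775 acceptor: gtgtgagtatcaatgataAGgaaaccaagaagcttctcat
Each intron began with GT and ended with AG.

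The third set is the end of intron 1 and the start of exon 2 in a family of 6 outside loci, with the start codon of the longest reading frame in capitals. The 60-nt window was identical in 5 of the 6 copies and is shown for AT1TE27295 (chr1:8457656-8457715, plus strand) beside AT5TE53465 (chr5:14830433-14830492, plus strand), which differed from it.
AT1TE27295: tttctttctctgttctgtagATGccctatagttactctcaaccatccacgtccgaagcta
AT5TE53465: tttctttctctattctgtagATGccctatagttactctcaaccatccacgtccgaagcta
In every copy the start codon was the first codon of exon 2, directly behind the intron.

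The first comparison asks in which genotypes models appeared on the arms. The wt library held 4 models outside the blocks (exact Poisson 95% interval 1.09 to 10.2) and ddm1 held 10 (4.8 to 18.4). Then came 31 in ddm1 rdr6 (21.1 to 44.0), 38 in ddm1 polV (26.9 to 52.2), 29 in triple A (19.4 to 41.6) and 125 in triple B (104 to 149). Library totals are not in the files, so these numbers carry an unknown depth, and the intervals cover counting error only. Since the lowest cluster had 10 reads, the lack of a model does not show that a locus was silent.

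As a share of each library's TE models, the arms took 4 of 6 in wt, 20.8% in ddm1 (Clopper-Pearson 95% interval 10.5 to 35.0), 29.0% and 26.2% in the rdr6 and polV doubles, 31.9% in triple A and 28.9% in triple B (24.7 to 33.5). None of the 5 pairs of libraries tested differed after adjustment. The lowest was wt against ddm1, 45.8 points higher in wt (p = 0.0334, adjusted p = 0.167, two-sided Fisher's exact test, Benjamini-Hochberg over 5 pairs), from 6 models in wt. The share in ddm1 was 11.0 points below that of triple A (adjusted p = 0.549, Fisher's exact test), and A and B differed by 2.93 points (adjusted p = 0.613, Fisher's exact test). With 1 library per genotype, these tests compare libraries.

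Only 4 outside loci had a model in wt, and 3 of them ended in A-rich stretches of the genome. Over all outside loci, 12 of 112 (10.7%) had at least 12 A in their last 20 nt. AT5TE72200 (Chr5 20048358 to 20049583, minus strand) lay antisense to the protein-coding gene AT5G49440 and was the 1 outside locus found in all 6 libraries. Its reads were 36 in wt, 35 in ddm1, 53 and 12 in the rdr6 and polV doubles, 29 in triple A and 209 in triple B, so ddm1 polV was the lowest and wt was within the range of the other round 1 libraries. AT5TE72580 overlapped an exon of AT5G49645 and had 11 reads in wt, no model in ddm1, then 15, 32, 14 and 108 reads. SADHU5-1 (AT4TE03410), a non-autonomous retroposon of the Sadhu family, had 11 wt reads, 25 in ddm1 rdr6 and 26 in triple B, and none elsewhere. Of the last 20 nt of these 3 loci, 14, 16 and 20 were A, and whether reverse transcription started inside these stretches was not tested. AT4TE25700 (Chr4 6093447 to 6094930), in the pseudogene AT4G09644, was the 1 spliced wt locus, with 11 reads in wt and 12 in triple B, its only libraries.

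Most loci had no model in wt or ddm1, outside the blocks (99 of 112, 88.4%) as inside (198 of 232, 85.3%). Of the 112 outside loci, 4 were in wt and 9 more (8.04%) appeared in ddm1, against 2 and 32 (13.8%) of the 232 inside. A further 13 were in both ddm1 rdr6 and ddm1 polV (22 inside), 5 in ddm1 rdr6 alone of that pair (8 inside) and 16 in ddm1 polV alone (35 inside). Another 6 had their first model in triple A (6 inside), and 59 (52.7%) were found in triple B only. Of these counts the last was tested. Inside the blocks the triple B share was 54.7% (127 of 232 loci), and the difference of -2.06 points (outside minus inside) did not pass (adjusted p = 0.730, Fisher's exact test over 3 locus features). Loci held by triple B but by no round 1 mutant had a median of 15 reads there, near the minimum, against 41 for the 49 loci that it shared with a round 1 mutant.

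Loci of a round 1 mutant library mostly had a model in a second mutant library, while 59 of the 61 loci found in exactly 1 library were in triple B. Inside the blocks it was 127 of 133. All 10 outside loci of ddm1 had a model in ddm1 rdr6 and 8 in ddm1 polV. Over the whole series it was 42 and 40 of the 44 loci of ddm1, so this overlap was not particular to the arms. The doubles shared 22 outside loci, which is 73.3% of the 30 in ddm1 rdr6 and 57.9% of the 38 in ddm1 polV. The same value over the whole series is not given here. All 28 outside loci of triple A were in triple B, where they made up 25.7% of the 109. Over the whole series all 80 loci of triple A were among the 334 of triple B. No model in triple B was found for 3 of the 112 loci (2.68%) and for 7 of the 232 inside (3.02%). The 3 were AT2TE26230 with 10 reads in ddm1 and 11 in ddm1 rdr6, AT1TE29570 with 18 in ddm1 polV, and AT4TE63170 with 10 in ddm1 rdr6, the last on exons of AT4G26630, a DEK-domain chromatin protein gene.

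**Figure D1:**
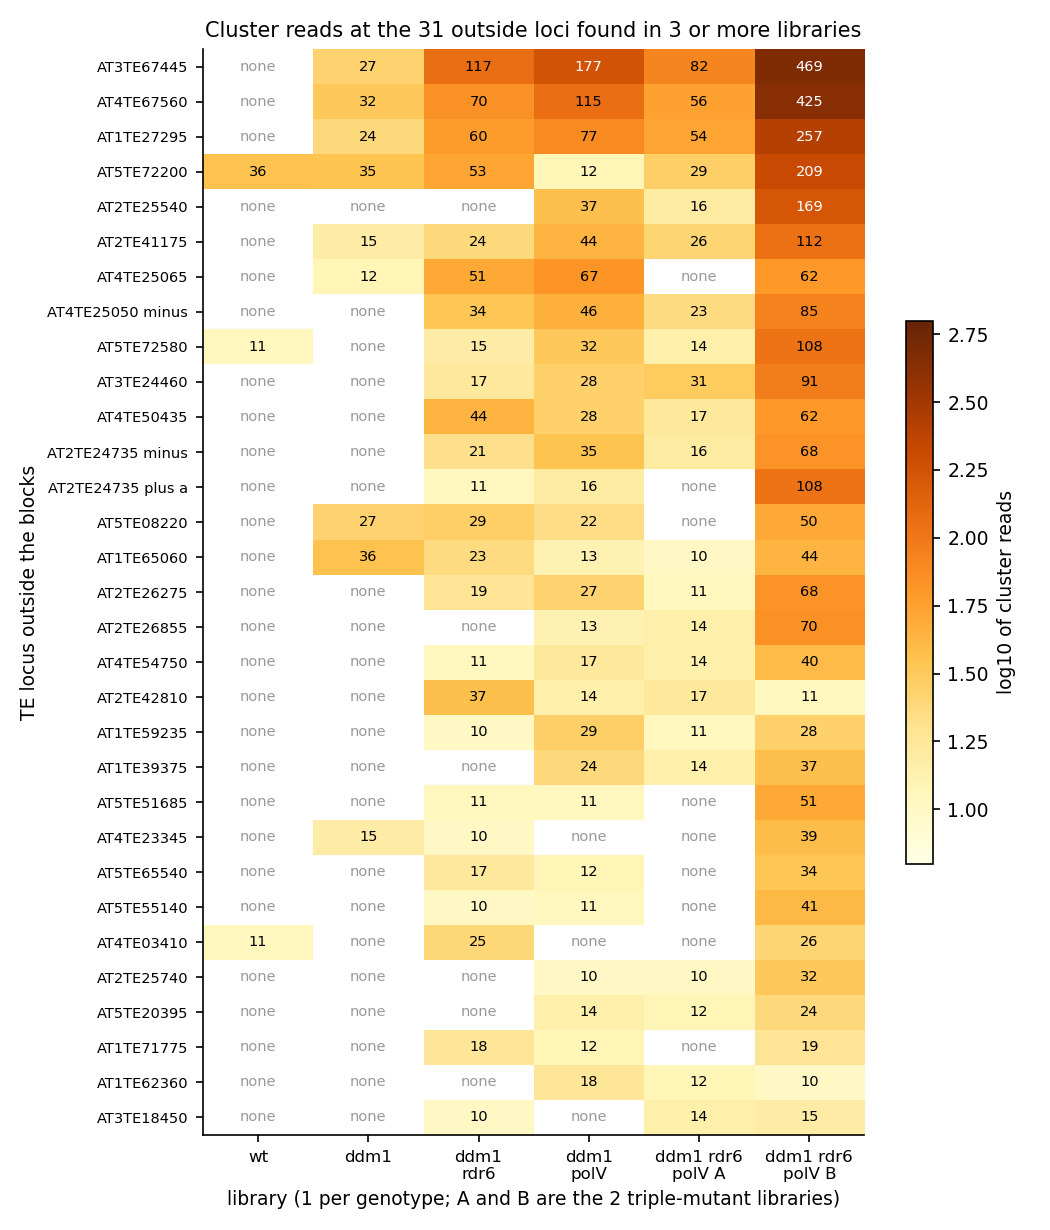
Cluster reads (number and log10 colour scale) at each of the 31 outside loci found in 3 or more libraries, 1 column per library; "none" means no model. The top 3 loci have 24 to 32 reads in ddm1 and 257 to 469 in triple B, while AT5TE72200 has 36 in wt and 12 in ddm1 polV.

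Of the round 1 mutant libraries, 3 or more held 17 of the loci, and all 5 mutant libraries held 6. The 3 with most reads, AT3TE67445, AT4TE67560 and AT1TE27295, had the same best protein match, AT1G23915. AT3TE67445 (Chr3 16641343 to 16642212, in the pseudogene AT3G45360) had 27 reads in ddm1, then 117 and 177 in the rdr6 and polV doubles, 82 in triple A and 469 in triple B. AT4TE67560 (Chr4 14283605 to 14284593, in the pseudogene AT4G28970) had 32, 70, 115, 56 and 425 reads in that order. AT1TE27295 (Chr1 8457303 to 8458339, on exons of AT1G23915) had 24, 60, 77, 54 and 257. In raw reads, ddm1 was the lowest mutant library at each of them and ddm1 polV the highest of round 1, and wt had no model. The same order held for the median log2 ratio to ddm1 over all shared TE loci. It was 0.687 in ddm1 rdr6, 1.14 in ddm1 polV and 0.350 in triple A. Centred on these medians, AT1TE27295 was at 0.635, 0.546 and 0.820 in that order, lowest in ddm1 polV. AT4TE67560 (0.442, 0.709 and 0.457) and AT3TE67445 (1.43, 1.58 and 1.25) were highest there.

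AT1G23915 is annotated as a protein of unknown function. For 10 outside loci it was the best match in a translated search of the annotated proteins. Whether these loci yield a protein was not tested. Of these, 6 matched at 97.9% identity or more and 4, with AT3TE67445 among them, at 28.0 to 33.9%. The 10 loci had no wt model and together held 95 of the 233 outside reads of ddm1 (40.8%), 332 of those in the rdr6 double (41.4%), 524 in the polV double (47.5%), 215 in triple A (36.3%) and 1452 in triple B (30.6%). Among the mutant libraries their part of the arm reads was largest in the polV double and smallest in triple B.

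The 6 close relatives each had a model of the same build, with 3 exons, a middle exon of 180 nt, a second intron of 79 nt and a reading frame of 142 codons. Across the 426 coding nt, AT1TE27295 and AT4TE67560 were the same, and the other 4 differed from AT4TE67560 at 3 or 4 positions with 139 of 142 residues kept. In triple B, 2 of them also had a single-exon model at the 3′ end without that frame. AT4TE67560 had 98 of its 425 reads in such a model of 257 nt, and AT5TE53465 had 32 of its 60 in one of 221 nt, against 28 in its 3-exon model. The first intron varied in length, from 176 nt in AT2TE43165 to 260 nt in AT1TE27295. With coding parts so alike, reads could have been placed on the wrong copy, and how reads with several matches were treated is not stated in the labels or headers. Inside the blocks, 2 further loci belonged to this group, against 6 outside.

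The number of copies with a model varied between libraries. In ddm1, 2 of the 6 had a model, in ddm1 rdr6 3, in ddm1 polV all 6, in triple A 3 and in triple B all 6. The number of loci with a model varied in a like order over the whole series. Of the 344 loci, 44, 92, 127, 80 and 334 had a model in these libraries. AT4TE25050 on its minus strand had no model in ddm1, then 34, 46, 23 and 85 reads. AT2TE43165 (minus strand) and AT5TE53465 had models in ddm1 polV (21 and 10 reads) and in triple B (56 and 60), and AT3TE70635 (plus strand) had 11 and 10 reads in the same libraries. A count of 10 reads is the lowest that gives a model, so a copy without a model may still have been transcribed.

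Facing transcripts came from the same TE. Of the TE identifiers outside the blocks, 5 had models on both strands, and in every such pair the 3′ ends faced each other. TEs inside the blocks, such as AT2TE21295 and AT3TE57780, also had loci on both strands. Their orientation is not described here, so facing pairs cannot be called particular to the arms. At AT4TE25050 the small minus-strand transcript faced a plus-strand transcript of 5 exons and 2298 nt with a reading frame of 666 codons, 566 nt away. At AT2TE43165 the partner had 5 exons, 2307 nt and 592 codons, 364 nt away. Both long partners had 12 reads in triple B, their only library, and they best matched AT2G06420, annotated as En/Spm-like, at 36.8% and 35.5% identity over 220 residues. The paired loci at AT2TE24735 were also found in round 1, where the first plus-strand locus had 11 reads in ddm1 rdr6 and 16 in ddm1 polV, and the minus-strand locus 21 and 35.

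**Figure D2:**
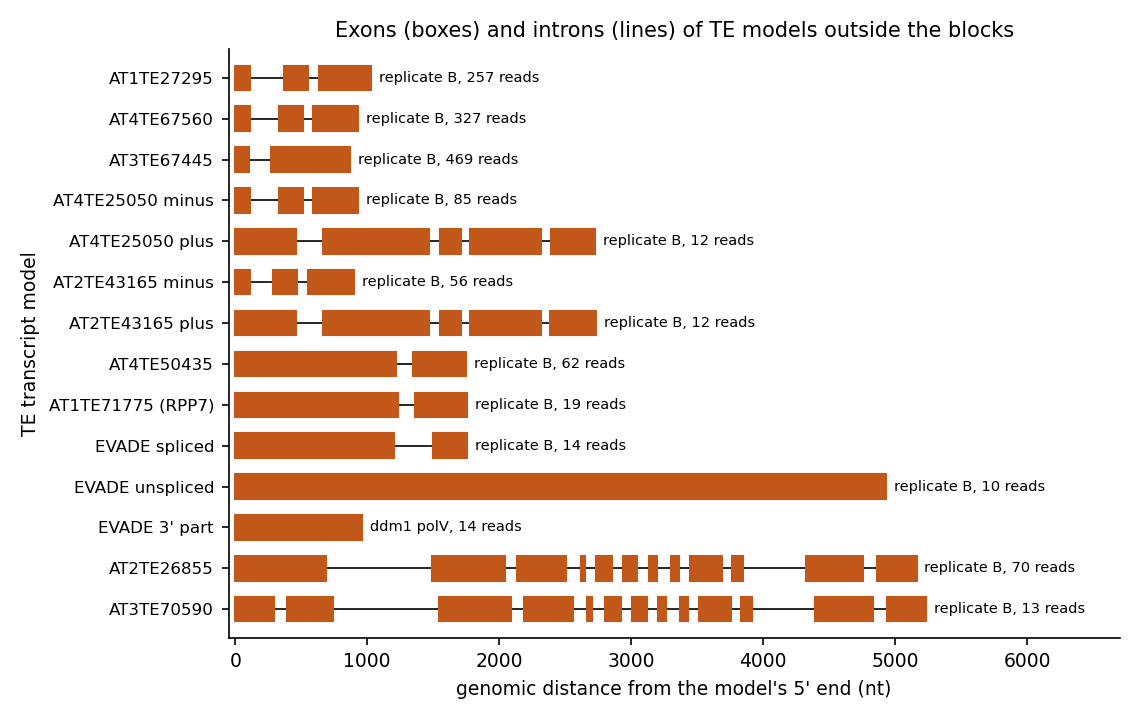
Exons (boxes) and introns (lines) of 14 models, drawn 5′ to 3′ in nt of genomic distance from each model's 5′ end, with the library and cluster reads beside each. The small 3-exon models are among the shortest, the facing partners of AT4TE25050 and AT2TE43165 have 5 exons, and the EVADE unspliced model runs over 4933 nt.

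Of 8 outside loci whose best match was annotated as Copia-like or was the best match of EVADE, 5 had a spliced model and 3 did not. EVADE had no model in wt, ddm1 or ddm1 rdr6. In ddm1 polV (14 reads) and triple A (12 reads) it had only a single-exon model of its 3′ part, of 960 and 952 nt. In triple B it had a spliced model of 2 exons and 1461 nt (14 reads) with a reading frame of 318 codons, and an unspliced model of 4933 nt (10 reads), the longest outside the blocks, with a frame of 1404 codons. The 296-nt intron lay behind an exon of 1203 nt, and short spliced RNAs of EVADE are known to encode its Gag protein. The spliced form came from 1 library.

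AT5G48050, annotated as a Copia-like polyprotein, was the best match of 5 other loci, at 24.5 to 30.3% identity over 175 to 207 of its 369 residues. Of these, 4 had 2 exons, with first exons of 1215 to 1266 nt, introns of 125 to 140 nt and reading frames of 384 to 407 codons, and AT5TE36335 was unspliced, with 46 reads in triple B. AT4TE50435 had no model in ddm1, then 44 reads in ddm1 rdr6, 28 in ddm1 polV, 17 in triple A and 62 in triple B, with the same intron in all 4 libraries. AT4TE25200 and AT4TE28200 were found in triple B only, with 11 and 13 reads. The other 2 unspliced loci had 16 reads each in triple B alone. AT4TE29830 (2036 nt, 592 codons) shared its best match, AT4G23160, with EVADE, and AT5TE78710 (711 nt) matched AT1G21280. AT4G23160 is annotated as a cysteine-rich receptor-like kinase and matched these 2 loci at 44.0% and 45.9% identity.

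AT1TE71775 (Chr1 21748573 to 21750326) lay within an intron of RPP7 (AT1G58602) on the same strand, and was the 1 outside locus of that kind. RPP7 confers resistance to downy mildew, and its Copia insertion is known to affect where its mRNA ends. The element had 18 reads in ddm1 rdr6, 12 in ddm1 polV and 19 in triple B, the same intron in all 3 libraries, and no model in wt, ddm1 or triple A. Of 10 host genes listed for links between their expression and DNA methylation or heterochromatin (FWA, SDC, BNS, QQS, ROS1, RPP7, IBM1, IBM2, SUP and PAI2), RPP7 was the 1 that overlapped an outside locus, and QQS overlapped a locus inside a block.

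Hiun (AT2TE42810), a VANDAL21 DNA transposon that moves in ddm1, had a 2-exon model of 569 to 596 nt in the pseudogene AT2G23490. Its reads were 37 in ddm1 rdr6, 14 in ddm1 polV, 17 in triple A and 11 in triple B, with no model in wt or ddm1. Triple B was the lowest of these, whereas the median log2 ratio of triple B to triple A over all 80 shared TE loci was 2.17. Of the 8 elements listed for their study in ddm1, EVADE and Hiun could be tied to an identifier, and both had outside models; the other 6 were not analysed here.

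The longest multi-exon transcripts on the arms belonged to a sequence group whose best protein matches are DUF1985 proteins. AT2TE26855 (Chr2 6566364 to 6571524, in the pseudogene AT2G15140) had 12 exons and 3056 to 3060 nt, with 13 reads in ddm1 polV, 14 in triple A and 70 in triple B. AT3TE70590, found in triple B with 13 reads, had 13 exons, 3011 nt and a reading frame of 857 codons. They best matched AT3G32960 at 34.2% identity over 158 residues. Their group held 4 outside loci and 2 inside, and 2 of the outside members, AT3TE70590 and AT1TE38530, lay antisense to the annotated microRNA genes MIR2933b and MIR2933a. AT2TE26680 with 8 exons, and AT5TE51685 and AT4TE89790 with 7 each, were next by exon number, and AT2TE26680 and AT1TE62470 (2638 and 2634 nt) came after these by length.

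A spliced group with short reading frames had no outside model in ddm1 or ddm1 rdr6, although its member AT3TE53850 inside the blocks was found in both doubles. It had 5 outside loci, led by AT2TE25540, all with 2 or more exons, reading frames of 6 to 46 codons and no protein match, and 3 loci inside the blocks. AT2TE25540 (Chr2 6263366 to 6264318) had 37 reads in ddm1 polV, 16 in triple A and 169 in triple B, of which 147 were in a 4-exon model of 511 nt and 22 in a 3-exon model of 757 nt. AT3TE45975 had 23 reads in triple A and 151 in triple B, spread there over 3 splice forms of 91, 32 and 28 reads. AT4TE08355 had 12 reads in A and 82 in B.

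The extent of a few models differed between libraries. AT1TE65060 (Chr1 19676791 to 19679910, in the pseudogene AT1G52850) was a single exon of 183 nt in ddm1 (36 reads), while ddm1 rdr6 (23 reads), ddm1 polV (13 reads) and triple B (44 reads) each had 6 exons, with lengths of 1749, 1754 and 1760 nt. Triple A (10 reads) had a 2-exon model of 553 nt. All of these ended within 15 nt of each other. AT2TE41175 (Chr2 9652489 to 9655003), by contrast, kept 3 exons and an intron of 1577 nt in all 5 mutant libraries, with 15, 24, 44, 26 and 112 reads.

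Most transcript ends lay close together from library to library. Over the 31 outside loci with models in at least 3 libraries, the 5′ ends of the strongest model per library spanned a median of 1 nt and the 3′ ends 11 nt. The 5′ end was at the same base in 15 of the 31, and it spanned over 100 nt in 3, AT1TE65060, EVADE and SADHU7-1 (AT3TE18450). Inside the blocks the medians were 1.5 and 8 nt over 62 loci.

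The next comparison asks whether arm transcripts differed from those inside the blocks in splicing. In each of the 5 mutant libraries the multi-exon share was higher outside. It was 74.2% outside (23 of 31) against 48.7% inside (37 of 76) in ddm1 rdr6, 25.5 points apart (adjusted p = 0.0313, two-sided Fisher's exact test, Benjamini-Hochberg over 5 libraries). In ddm1 polV it was 76.3% (29 of 38) against 44.9% (48 of 107), 31.5 points apart (adjusted p = 0.00572, Fisher's exact test). In triple B it was 68.0% (85 of 125) against 53.7% (165 of 307), 14.3 points apart (adjusted p = 0.0180, Fisher's exact test). In ddm1 (6 of 10 models against 31.6% of 38, adjusted p = 0.145) and triple A (69.0% of 29 against 45.2% of 62, adjusted p = 0.0543, Fisher's exact tests) it did not pass.

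The difference did not hold when loci beside the blocks were counted with them. With blocks wider by 0.5 Mb on each side it was 15.2 points in ddm1 rdr6, 19.8 in ddm1 polV and 9.44 in triple B, and none passed (adjusted p = 0.391, 0.318 and 0.349, Fisher's exact test). With 500-kb bins under 40% protein-coding gene bases in place of the blocks, it was 13.2, 16.7 and 5.81 points (adjusted p = 0.5 for each, Fisher's exact test). In ddm1 rdr6 the call was also lost with blocks narrowed by 0.5 Mb (20.6 points, adjusted p = 0.0795, Fisher's exact test) and without models on same-strand coding exons (24.0 points, adjusted p = 0.0510, Fisher's exact test). Triple A passed with loci in place of models (25.5 points, adjusted p = 0.0455, Fisher's exact test) and without models on coding genes of either strand, an alternative chosen after seeing the data (34.0 points, adjusted p = 0.0114, Fisher's exact test). The libraries share loci, so the 5 tests are not independent of each other. Models within 1 library are not independent either, since members of a sequence group share their exon structure. In ddm1 polV, 6 of the 29 multi-exon outside models came from the group of AT4TE67560. Each test and interval takes models as independent, so the p-values may be too low and the intervals too narrow.

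**Figure D3:**
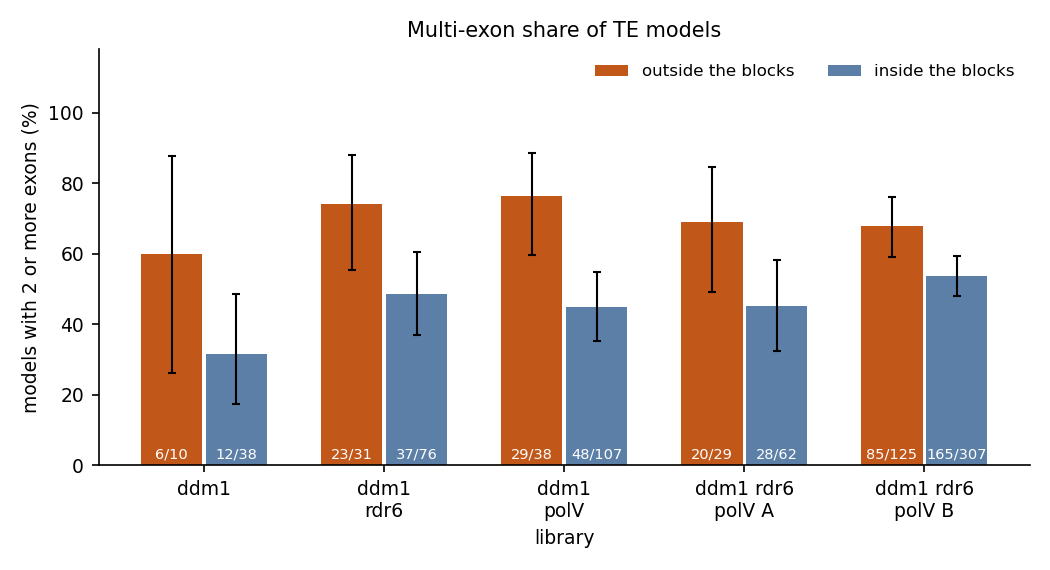
Share of TE models with 2 or more exons in each mutant library, outside (orange) and inside (blue) the blocks; bars start at 0, error bars are Clopper-Pearson 95% intervals and the fractions give the counts. The outside bar is higher in each library, by 14.3 points in triple B and by 31.5 in ddm1 polV.

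Nearly all introns had canonical edges on both sides. Outside the blocks 187 of 189 distinct introns (98.9%) were GT-AG and 1 was GC-AG, against 314 of 320 (98.1%) inside. The alignment settings are not given, and how far the aligner itself set these edges was not tested. The median intron was 102 nt outside (quartiles 81 and 220) and 101 nt inside (82 and 364.5). The longest outside was 3034 nt, at AT5TE55140 in 3 libraries. Of the outside introns 43.9% were found in 2 or more libraries, against 35.3% inside. Triple B held all 9 outside introns of ddm1, 40 of 41 of ddm1 rdr6, 69 of 75 of ddm1 polV and all 38 of triple A.

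Lengths and reads per model overlapped between the regions. The median spliced length outside was 677 nt in ddm1 (quartiles 349 and 706), 698 and 681.5 nt in the rdr6 and polV doubles, 649 nt in triple A and 695 nt in triple B (511 and 1221). Inside it was 602, 797.5, 782, 610 and 718 nt in the same order, so the outside median was higher in 2 libraries and lower in 3. Median reads per model outside were 25.5, 18, 17.5, 14 and 19, against 18, 17.5, 17, 16.5 and 18 inside. These are descriptions without a test.

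Pairing with TE identifiers differed between the regions. A locus joined several TE identifiers in 5 of 112 cases outside (4.46%, Clopper-Pearson 95% interval 1.47 to 10.1) and in 49 of 232 inside (21.1%, 16.1 to 26.9), a difference of 16.7 points that passed (adjusted p = 8.27e-05, Fisher's exact test over 3 locus features). The 5 were AT2TE26680, AT4TE07415, AT4TE09080, AT4TE44390 and AT5TE26805. Density of annotated TEs is higher in the blocks by their choice, and the TE annotation was not used here. By sequence, 57 outside loci (50.9%) stood alone and 55 fell into 22 groups, 14 of which also had members inside the blocks.

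The last comparison concerns annotated protein-coding genes. Some of these, such as AT1G23915 and AT3G47965, have close copies at other TE loci, so an overlap does not by itself show a host transcript. Outside the blocks 14 of 112 loci (12.5%, 7.01 to 20.1) had an exon on a same-strand exon of a protein-coding gene, against 6 of 232 inside (2.59%, 0.955 to 5.54). The difference of 9.91 points passed (adjusted p = 0.00112, Fisher's exact test), but with models of at least 20 reads it was 6.96 points and did not (adjusted p = 0.125, Fisher's exact test). A further 8 outside loci lay antisense to a coding gene, 1 in an intron and 89 on none. Gene density differs between the regions by construction.

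Several of the 14 ran along whole host mRNAs. In triple B, AT1TE57410 was a 5-exon transcript of GAMMA CA2, a carbonic anhydrase-like subunit of mitochondrial complex I, that covered 275 of its 278 residues. AT3TE00780 carried all 272 residues of the homeobox gene HB-1, and AT1TE77500 all 378 of AT1G63470, an AT-hook protein. These had 11, 19 and 13 reads and no model in round 1. AT4TE89790 carried all 245 residues of AT4G39900, with 11 reads in ddm1 polV and 29 in triple B. A 263-nt model with 13 reads in triple B lay on FHY3, a transcription factor derived from a transposase.

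The rest of the 14 included the loci with most reads. By reads, AT1TE27295 on AT1G23915 and AT5TE72580 on AT5G49645 came first. Next was AT1TE59235 on AT1G48285, a GRF zinc finger gene, with no model in ddm1, then 10, 29, 11 and 28 reads. AT5TE55140 on AT5G38190 had 10 reads in ddm1 rdr6, 11 in ddm1 polV and 41 in triple B. AT2TE25020 on AT2G14460 had 10 reads in A and 39 in B. AT3TE71740, AT2TE77005 and AT1TE35870 had 18, 15 and 12 reads in triple B alone, and AT4TE63170 is described above. Among the 8 antisense loci, AT5TE73780 lay opposite ELO3, an Elongator subunit gene, with 34 reads in triple B, and AT2TE26110 opposite AGP9 with 10.

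Arm loci lay closer to coding genes than loci inside the blocks, as values without a test. The nearest coding gene was a median of 1282.5 nt away outside (quartiles 242 and 3372 nt, overlaps counted as 0), against 7632 nt inside (2683 and 18052). Within 1 kb of a gene or on it were 43.8% of the outside loci and 12.9% of those inside. Without the overlapping loci the medians were 2314 nt over 89 loci outside and 8446.5 nt over 222 inside, and 26 (29.2%) and 20 (9.01%) lay within 1 kb. Of the 89 without overlap, the nearest gene lay upstream in 49, 22 of them on the same strand, and downstream in 40, 20 of them on the same strand. The farthest, AT4TE09080, was 24156 nt from a coding gene. Same-strand exons of annotated pseudogenes, a type that the annotation also gives to TE genes, were overlapped by 68.8% of loci outside and 55.6% inside.

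**Figure D4:**
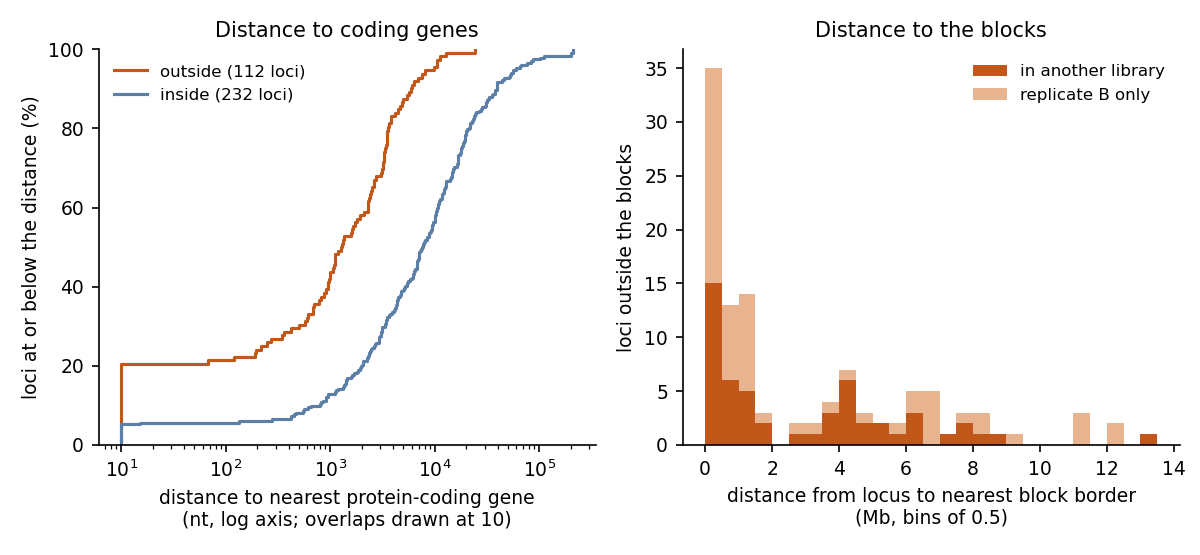
Left, percent of loci (outside orange, inside blue) at or below a given distance to the nearest protein-coding gene, on a log axis in nt with overlaps drawn at 10. Right, number of outside loci by distance to the nearest block border in bins of 0.5 Mb, split into triple B only and others. The outside curve runs to the left of the inside curve, and 48 of the 112 loci lie within 1 Mb of a border.

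Many of the loci lay near a block. The median distance to a block border was 1.37 Mb, 48 of the 112 lay within 1 Mb and the farthest, AT4TE89790, was 13.0 Mb away. Just outside a border was AT4TE09480, 15.6 kb away with 13 reads in triple B, and just inside one was AT2TE06955, 9.69 kb away with 12 reads in ddm1 and 21 in triple B. By chromosome, 24, 26, 17, 23 and 22 loci lay outside on chromosomes 1 to 5.

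Read ratios at shared loci were set against the spread of all shared TE loci, after centring on their median log2 ratio. Between ddm1 rdr6 and ddm1, 4 of 10 outside loci were past 2-fold, where 28.6% of all 42 shared loci were. Between ddm1 polV and ddm1 it was 5 of 8, against 35.0% of 40. Between triple A and ddm1 it was 2 of 6, against 37.5% of 32. Between replicates B and A of the same genotype it was 7 of 28, against 25.0% of 80. Counts this small, with 1 library per group, are values without a test, and the first 3 comparisons share the ddm1 library.

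Among the outside loci, AT1TE65060 had the lowest centred log2 ratio to ddm1 in ddm1 rdr6 (-1.33) and triple A (-2.20), and was at -2.61 in ddm1 polV, where AT5TE72200 was at -2.68. AT3TE67445 had the highest in all 3, at 1.43, 1.58 and 1.25, and AT4TE25065, its relative, was at 1.40 in ddm1 rdr6 and 1.34 in ddm1 polV. The ddm1 model of AT1TE65060 was the 183-nt single exon, against longer spliced models in the other libraries, so its ratios set unlike forms side by side. Between the replicates, AT5TE22990 (19 reads in A, 11 in B) was at -2.96, Hiun at -2.80, SADHU8-1 (AT1TE62360) at -2.43 and SADHU7-1 at -2.07. AT5TE22990 had a single exon of 169 nt in A and 2 exons of 756 nt in B, so its ratio also sets unlike forms side by side. The Sadhu loci were picked out after their values were seen. AT2TE25540 was the 1 outside locus past 2-fold in the other direction, at 1.23.

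The canonical poly(A) signal was found near few of the 3′ ends. AATAAA, searched on the transcript strand in the last 50 nt of the strongest model, was in 13 of 112 outside loci (11.6%), 43 of 232 inside (18.5%) and 9.77% of 27444 annotated protein-coding gene ends. At least 12 of the last 20 nt were A in 12 outside loci (10.7%) and 33 inside (14.2%), and at least 12 of the next 20 genomic nt were A in 3 and 4.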

How the data were processed

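Long-read cDNA libraries from 6 samples were used. Per the submitters' processing notes, reads were aligned with minimap2 to TAIR10, and per the file headers the transcript models are from pinfish; their versions and settings are not given in these sources. The deposited files give each library's models with exon coordinates and a list pairing models with TE identifiers. The whole number ending each model name, at least 10, was read as cluster reads, which the files do not state. Depth per library is unknown.

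The members and lists were chosen with earlier results of these data known. Models were merged into loci by same-strand exon overlap of at least 1 bp. Genes, proteins and sequence came from RefSeq TAIR10.1, whose match to the models was checked through splice sites. Named loci were those in wt, in all 5 mutant libraries, the 10 with most reads, the 5 with most exons, the 5 longest, those nearest a border, those on coding exons, and those at 10 listed genes and 8 listed elements; other loci of a sequence group, of facing pairs or antisense to genes were chosen after their values were seen. Proteins were matched with BLAST+ 2.17.0 (blastx, e-value 1e-05); sequence groups needed 80% identity over 80% of the shorter model and at least 80 nt (blastn). Reading frames ran from ATG to stop. Shares were compared with Fisher's exact test (scipy 1.17.1, Python 3.11.15), two-sided, with Benjamini-Hochberg adjustment. Intervals are 95%, were computed on numbers of models or loci, and cover counting error only. Reads carry no molecular identifiers. The tests were tested on simulated data in which models were drawn independently, so related copies were not covered. The labels do not say whether replicates A and B are separate plants, so their spread may be technical.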

Additional observations from a re-analysis of the deposited data

How the results depend on the processing

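Values are differences in percentage points, first group minus second. Each of the 5 pairs of libraries missed the threshold for the share outside under every alternative run. With models of at least 20 reads, 4 changed sign, to 0.742 for ddm1 minus ddm1 rdr6, 2.27 for ddm1 minus ddm1 polV, 5.05 for ddm1 minus triple A and -8.93 for A minus B. The multi-exon difference in both doubles and triple B no longer passed with blocks widened by 0.5 Mb (15.2, 19.8 and 9.44) or with bins of few coding bases (13.2, 16.7 and 5.81). In ddm1 rdr6 it also no longer passed with blocks narrowed by 0.5 Mb (20.6) or without models on same-strand coding exons (24.0). In triple A it passed with loci in place of models (25.5) and, in an alternative chosen after seeing the data, without loci on coding genes of either strand (34.0). The share of loci found in triple B only changed sign with narrowed blocks (1.84), bins (1.21), models of at least 20 reads (8.71), loci whose best model had at least 20 reads (8.18, chosen after seeing the data) and without triple A (0.708), passing in none. The coding overlap did not pass with either 20-read minimum (6.96 in each). Without replicate A or B, the coding overlap was 9.91 and 9.40 and several TE identifiers -16.7 and -22.9, all passing. The share found in triple B only has no value without that replicate. Median length moved by more than the spread of A and B in ddm1 rdr6, to 856 nt (widened), 750.5 nt (narrowed) and 643 nt (at least 20 reads). The read minimum moved median exons to 1.5 in ddm1 and 3 in triple A, and median reads to 29.5, 37, 33.5, 30 and 38.5 by construction. In 133 other cases the direction and the side of the threshold were kept or, for a median, the move was within that spread. The causes of the other changes were not tested. No paired analysis was possible because 4 of the 5 genotypes have 1 library each. Unknown depth limits every count of models.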
